A study of Arabidopsis thaliana with 6 samples.

Results

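Rosette leaves of Arabidopsis thaliana harvested 7 weeks after sowing were compared with leaves harvested 5 weeks after sowing, on the 4 arrays titled with those ages out of the 6 arrays of the series. Each age had 2 arrays, 1 from wild type (WT) plants and 1 from the mlo2 mlo6 mlo12 triple mutant, and the difference between 7 and 5 weeks was taken within each genotype. All plants were grown under normal conditions, and all arrays were made from mature rosette leaves. The 3 MLO genes mutated in the triple mutant encode proteins of the plasma membrane, and their loss makes leaves resistant to powdery mildew. The ecotype, the mutant alleles, the number of plants per array and the hour of harvest are not given in the labels, and the levels of the MLO genes themselves were not analysed here. The 2 arrays of an age differ in genotype and are not labelled as separate cultures, so the p-values measure only the spread between these arrays.

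An expanding leaf builds up its photosynthetic apparatus, and an ageing one takes it apart and exports the nitrogen and sugars to younger organs. Most chloroplast proteins are encoded in the nucleus, made in the cytosol and imported, among them the enzymes of chlorophyll synthesis, the chaperones that fold plastid proteins and the factors that edit plastid transcripts. Autophagy delivers cytoplasm and pieces of chloroplast to the vacuole and is one of the recycling routes of older leaves. Cold- and dehydration-regulated (COR) proteins protect membranes, and several COR genes also follow the circadian clock and light.

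Values are log2 levels made by the authors with RMA, a method that corrects background, equalizes the distributions of the arrays and summarises the probes of a probe set, and a difference of 1 is 2-fold. The leaf genes that mark mesophyll were abundant at both ages: Rubisco activase RCA lay between 12.09 and 12.71 and the light-harvesting gene LHCB4.1 between 12.33 and 12.49 on the 4 arrays. Of 11 flower and pollen markers, 10 or 11 were under a log2 level of 4 on each array, with means of 2.58 to 2.77 on the 4 arrays. The means of 6 trichome and epidermis markers were 5.0 to 5.14, and those of 5 genes of the guard cell lineage were 3.86 to 4.07. Control probe sets moved with age. Spiked-in poly-A RNAs had a mean level of 4.03 in WT and 4.21 in the mutant at the earlier age, against 5.20 and 4.84 at the later one. The level of the 25S rRNA control went from 7.51 to 3.87 in WT and from 6.59 to 5.70 in the mutant. Their part in the results below was not tested, and hour, day or batch of harvest cannot be told apart from age.

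The question was which nuclear gene functions differed between the ages in the same direction in both genotypes. Of 13217 nuclear genes measured on a probe set with 1 gene, 163 (1.23%) were at least 2-fold higher at 7 weeks in both genotypes and 121 (0.915%) at least 2-fold lower. Taken singly, WT had 311 genes at least 2-fold higher and 262 lower and the mutant 408 and 286, and 4 were at least 2-fold different in opposite directions. The 2 differences of a gene had a Pearson correlation of 0.653 across the 13217 genes, which are not independent and share 4 arrays. Over all 22746 probe sets the counts were 279 higher (1.23%) and 299 lower (1.31%), so 48.3% of them were higher; after shifting every array to a common median the counts were 343 and 245, and 58.3% were higher. The genes at the edge of the rule were AT3G57785 (1.004) inside and AT5G41960 (0.995) outside on the higher side, and AT4G37550 (-1.0) inside and AT3G57700 (-0.994) outside on the lower side, each given by the smaller of its 2 differences.

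With limma on all 6 arrays, the adjusted p for 7 minus 5 weeks was below 0.05 for 0 of 22746 probe sets (0%) and reached 0.076 at the lowest, while 3691 had an unadjusted p under 0.05. The 6-week arrays enter that fit only through the error. With the 4 arrays of 5 and 7 weeks alone, 1755 (7.72%) passed, 833 higher and 922 lower, and among them were 159 of the 163 nuclear genes at least 2-fold higher and 120 of the 121 lower. That fit has 1 residual degree of freedom, and its error rests on the disagreement of the 2 genotypes. The 2-fold rule selects on the same 2 differences, so the overlap with the genes passing that fit is no separate support. The differences below are therefore given as values, as mean ± SE of the 6-array fit, with 2 arrays per age.

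**Figure D1:**
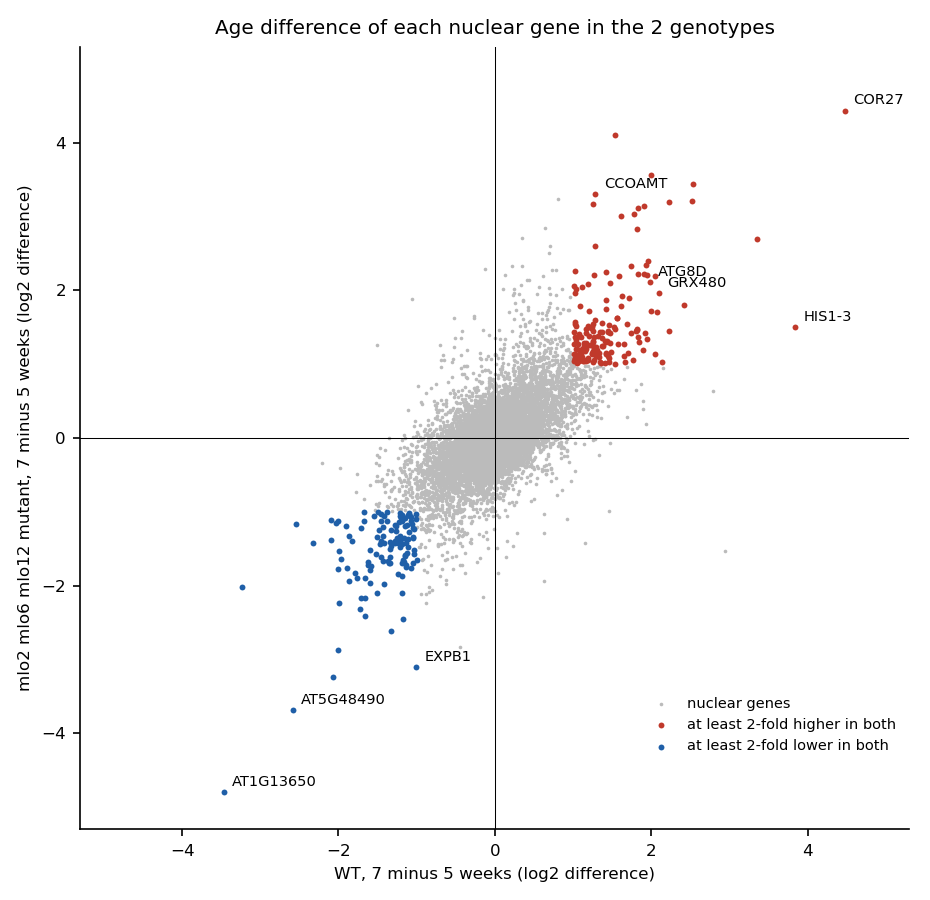
Each point is 1 of 13217 nuclear genes, with its 7 minus 5 week log2 difference in WT on the horizontal axis and in the triple mutant on the vertical axis. The 163 red and 121 blue genes were at least 2-fold higher or lower in both genotypes, and COR27 lies furthest out at the upper right.

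Only 11.1% of the nuclear genes carry a name beyond their locus number in the annotation used, and of the genes past 2-fold in both genotypes these were 13 of 163 higher and 20 of 121 lower. All 33 are described. They were singled out for having a name after their values had been seen.

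In whole leaves, fewer cells of a type and less RNA per cell cannot be told apart. Among the higher genes, COR27 stood first. It is a cold-regulated gene whose protein represses clock genes in the evening and takes part in light signalling. Its log2 level was 5.23, 7.35 and 9.71 on the WT arrays and 4.48, 5.59 and 8.92 on the mutant ones of 5, 6 and 7 weeks. The 7-week arrays lay far above both 5-week arrays, by 4.46 ± 0.29, which is 22-fold, and the 6-week arrays lay in between. The chloroplast-protecting COR15A read 9.94, 10.48 and 11.83 on the WT arrays and 9.54, 10.06 and 10.72 on the mutant ones. The dehydrin COR47 read 9.51, 8.60 and 10.55 on the WT arrays and 8.32, 8.87 and 9.36 on the mutant ones, so its WT level was lower at 6 weeks than at 5, and its 5-week WT array (9.51) was above the 7-week mutant array (9.36). The age difference was 1.54 ± 0.22 for COR15A, whose 5-week and 7-week arrays did not overlap, and 1.04 ± 0.41 for COR47. COR15A has a close neighbouring copy, COR15B, and probes on one may also take up transcript of the other.

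Autophagy and amino acid use were represented by ATG8D and ASPGA1. ATG8D is one of the ubiquitin-like proteins that coat the autophagosome membrane, and it read 6.41, 8.31 and 8.39 on the WT arrays and 6.39, 7.83 and 8.50 on the mutant ones of 5, 6 and 7 weeks. The asparaginase ASPGA1, which releases ammonia from asparagine, read 6.08, 7.62 and 7.73 on the WT arrays and 6.02, 6.65 and 7.30 on the mutant ones. Both genes were higher on each 7-week array than on either 5-week array, by 2.05 ± 0.19 and 1.46 ± 0.24.

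Thiol and redox genes followed. GRX480, a glutaredoxin induced by salicylic acid that binds TGA factors, read 4.36, 6.54 and 6.45 on the WT arrays and 5.46, 6.0 and 7.42 on the mutant ones of 5, 6 and 7 weeks. MSRB9, which reduces oxidised methionine in proteins, read 6.05, 8.19 and 7.62 on the WT arrays and 6.67, 8.63 and 8.29 on the mutant ones and was highest at 6 weeks in both genotypes. The differences were 2.03 ± 0.44 and 1.59 ± 0.14, and for both genes the groups did not overlap. The gibberellin receptor GID1B showed the same course as MSRB9, with 3.67, 5.50 and 5.04 on the WT arrays and 4.55, 6.39 and 6.11 on the mutant ones, and a difference of 1.46 ± 0.13. The phenylpropanoid methyltransferase CCOAMT read 4.22, 4.52 and 5.50 on the WT arrays and 3.60, 4.68 and 6.91 on the mutant ones, a difference of 2.30 ± 0.49 that was larger in the mutant than in WT.

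The linker histone variant HIS1-3, known from drought-treated leaves, differed most between the genotypes among these 13 genes. It read 3.26, 3.18 and 7.10 on the WT arrays and 2.49, 3.11 and 4.0 on the mutant ones of 5, 6 and 7 weeks, so the 7-week WT array held most of the mean difference of 2.67 ± 0.75. Genes for a pair of carbohydrate-binding proteins were also higher. The lectin EULS3 read 5.55, 6.97 and 7.35 on the WT arrays and 6.07, 7.03 and 7.53 on the mutant ones, and the jacalin-related lectin JAL34 read 4.28, 4.20 and 5.49 on the WT arrays and 3.84, 4.52 and 5.23 on the mutant ones. For the lectins the differences were 1.63 ± 0.17 and 1.30 ± 0.22, and for TET3, a tetraspanin of the plasma membrane with levels of 8.17 and 7.89 at 5 weeks and 9.20 and 8.95 at 7 weeks in WT and mutant, it was 1.05 ± 0.13. Over the 13 genes the adjusted p in limma ran from 0.076 to 0.319 on all 6 arrays and from 0.0089 to 0.0553 on the 4.

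Of the 20 named genes that were lower, 8 encode proteins that work in the chloroplast; they were grouped so after their values were seen, and the share of chloroplast proteins among all named genes was not counted. CRR21 edits the plastid ndhD transcript of the NAD(P)H dehydrogenase complex and read 5.06, 2.77 and 3.27 on the WT arrays and 5.37, 3.34 and 3.55 on the mutant ones of 5, 6 and 7 weeks. FUG1, a translation initiation factor of plastid ribosomes, read 9.58, 7.30 and 8.15 on the WT arrays and 9.33, 7.72 and 8.12 on the mutant ones. The lycopene cyclase LYC of carotenoid synthesis read 7.36, 5.44 and 5.89 on the WT arrays and 7.39, 6.45 and 5.96 on the mutant ones. In WT all 3 were lower at 6 than at 7 weeks. Their differences were -1.80 ± 0.15, -1.32 ± 0.20 and -1.45 ± 0.28. Both 7-week levels of CRR21 were under 4, where RMA compresses differences. HEME1, a uroporphyrinogen decarboxylase on the way to haem and chlorophyll, read 7.78, 6.82 and 6.51 on the WT arrays and 7.93, 7.27 and 6.66 on the mutant ones, a step down at each age in both genotypes (-1.26 ± 0.15). The chaperonin subunit Cpn60beta2 was lower by 1.26 ± 0.24, the starch branching enzyme SBE2.2 by 1.07 ± 0.19, the carbonyl-detoxifying reductase AOR by 1.37 ± 0.26 and TROL, which anchors ferredoxin-NADP reductase to the thylakoid, by 1.02 ± 0.31 on the log2 scale. The 5-week and 7-week levels of these 8 genes did not overlap between arrays.

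Another group of the lower genes acts at the cell wall and plasma membrane. SKU5, a membrane-anchored protein related to copper oxidases that directs root growth, read 8.44, 6.79 and 6.56 on the WT arrays and 8.64, 6.55 and 6.87 on the mutant ones of 5, 6 and 7 weeks. The endoglucanase GH9B7 read 7.56, 6.66 and 6.35 on the WT arrays and 7.65, 6.93 and 6.32 on the mutant ones and the mannan synthase family member CSLA03 read 4.08, 3.06 and 2.72 on the WT arrays and 4.84, 2.98 and 3.14 on the mutant ones. EXPB1, a beta-expansin that loosens walls, read 6.16, 6.68 and 5.16 on the WT arrays and 7.21, 5.82 and 4.10 on the mutant ones. The differences were -1.83 ± 0.18 for SKU5, -1.28 ± 0.14 for GH9B7, -1.53 ± 0.23 for CSLA03 and -2.06 ± 0.55 for EXPB1, and the mutant carried more of the last one. Both 7-week levels of CSLA03 were under 4, where RMA compresses differences.

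The remaining 8 lower genes have other roles. VTC4, a phosphatase of ascorbate synthesis, read 7.41, 6.55 and 5.79 on the WT arrays and 7.79, 6.73 and 6.11 on the mutant ones of 5, 6 and 7 weeks, a lower level at each later age in both genotypes (-1.65 ± 0.13). PMEAMT, which methylates phosphoethanolamine for phosphatidylcholine, read 8.59, 7.29 and 7.31 on the WT arrays and 8.52, 7.48 and 7.12 on the mutant ones (-1.34 ± 0.15). The auxin glucosyltransferase IAGLU read 4.76, 3.93 and 3.58 on the WT arrays and 5.54, 4.13 and 3.44 on the mutant ones (-1.64 ± 0.25). Both of its 7-week levels were under 4, where RMA compresses differences. The beta-glucosidase BGLU33 was at -1.80 ± 0.16, the cytochrome P450 CYP71B26 at -1.61 ± 0.27, the factor BZIP61 at -1.31 ± 0.27, the abscisic acid-related membrane protein HVA22C at -1.59 ± 0.37 and ATERDJ2B, a J-domain partner of the endoplasmic reticulum import pore, at -1.29 ± 0.17. Adjusted p-values of the 20 genes in limma ran from 0.076 to 0.221 on all 6 arrays and from 0.0182 to 0.0738 on the 4.

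**Figure D2:**
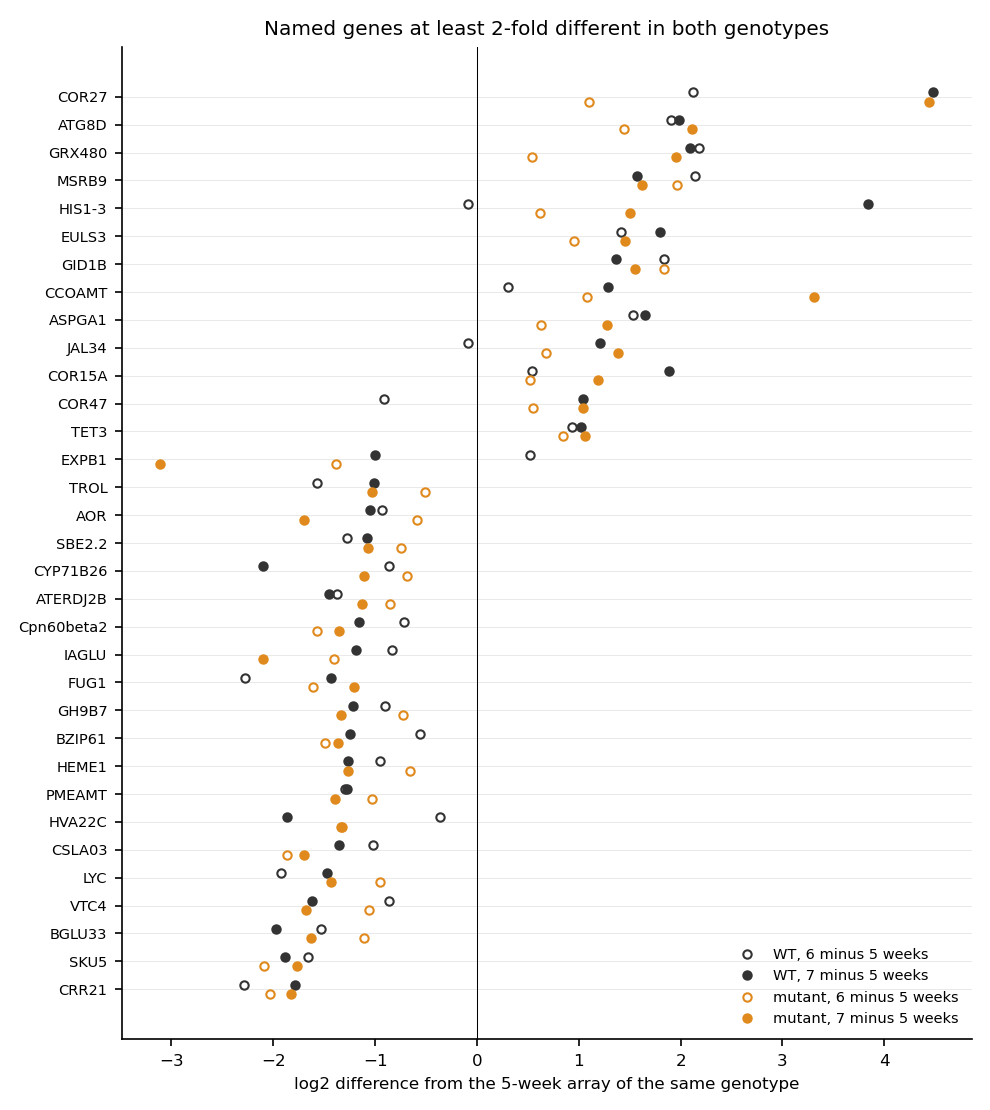
The log2 difference from the 5-week array of the same genotype is plotted for the 33 named genes at least 2-fold different in both genotypes, at 6 weeks (open points) and 7 weeks (filled points), in WT (dark) and mutant (orange). COR27 is above 4 in both genotypes at 7 weeks, while for MSRB9, GID1B, CRR21 and FUG1 the 6-week points lie at or beyond the 7-week points.

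Ranked by the smaller of the 2 differences, 12 of the 15 leading higher genes and 13 of the 15 leading lower ones have only a locus number here. AT4G36010 read 3.60, 6.91 and 6.95 on the WT arrays and 4.23, 5.33 and 6.93 on the mutant ones of 5, 6 and 7 weeks, AT1G64360 4.67, 8.08 and 7.21 on the WT arrays and 4.83, 6.16 and 8.27 on the mutant ones, and AT4G33980 5.06, 5.42 and 7.57 on the WT arrays and 4.42, 4.36 and 7.63 on the mutant ones. Their differences were 3.02 ± 0.54, 2.99 ± 0.72 and 2.86 ± 0.29, and AT4G33980 shared with COR27 that most of the difference came between 6 and 7 weeks. AT4G12490, AT5G55560, AT5G52390, AT5G40690, AT2G27830, AT3G27210, AT5G11930, AT1G05575 and AT3G59350 completed the 15; the smaller difference of each lay between 1.84 and 2.22. On the lower side AT1G13650 read 6.08, 4.17 and 2.62 on the WT arrays and 7.92, 4.35 and 3.13 on the mutant ones, a difference of -4.13 ± 0.42 that is 17.5-fold. Both of its 7-week levels were under 4, where RMA compresses differences, so the size of this fold is uncertain. AT5G48490 read 7.83, 6.80 and 5.24 on the WT arrays and 8.22, 7.19 and 4.54 on the mutant ones, a difference of -3.14 ± 0.32. Then came AT4G12980, AT3G54400, AT1G19450, AT3G60290, AT1G51110, AT1G12800, AT2G34620, AT5G15950, AT3G16670, AT2G36885 and AT3G15520, for which the smaller difference lay between -2.07 and -1.66. Of the leading 15 in each direction, all passed with the 4 arrays alone (adjusted p in limma of 0.0089 to 0.0259 for the higher and 0.0179 to 0.0222 for the lower genes), and none with all 6. The ranking uses the same 2 differences as the 4-array fit, so passing that fit is no separate support.

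The 6-week arrays placed the differences in time. In WT the 163 higher genes had a median of 106% of their 7-week difference at 6 weeks, and 93 of them were higher at 6 than at 7 weeks. In the mutant the median was 58.8%, and 143 of the 163 lay between their 5-week and 7-week levels at 6 weeks. The 121 lower genes had reached 88.8% of their 7-week difference in WT and 69.5% in the mutant (medians). The 5-week and 7-week levels of the same arrays chose these genes, so their place at 6 weeks is a description only. At least 50% of the difference was present at 6 weeks in both genotypes for 92 of the 163 and 77 of the 121, and less than 50% in both for 21 and 15. Late genes of the last kind included COR27, at 47.4% in WT and 24.9% in the mutant, COR15A (28.9% and 44.3%) and AT4G33980 (14.3% and -1.7%). Among early genes were SKU5 (87.8% and 118%) and GID1B (134% and 118%). At 6 weeks the 25S rRNA control was at 4.08 in WT, near its 7-week level, and at 5.39 in the mutant, below its 7-week level. The poly-A control probe sets had a 6-week mean of 5.16 in WT, near that of 7 weeks, while the mutant mean of 4.46 lay between those of 5 and 7 weeks. Their part in the timing was not tested. The 6-week WT array correlated least with the others (mean r of 0.970 against 0.975 to 0.982), and whether the earlier timing in WT belongs to the genotype or to that 1 array cannot be told apart.

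Lists of genes with a name were then read against all nuclear genes, of which 32.4% were higher in both genotypes and 32.2% lower in both, with a median difference of -1.02e-04. Lists with a share near these are no result about their members. The lists and their members were chosen with earlier results of these data known. Their shares are therefore descriptions and not a test against all nuclear genes. Chloroplast lists lay on the lower side. Of 23 nuclear genes for photosystem, NDH and other thylakoid proteins, 17 were lower in both genotypes and 1 higher, with a median of -0.25. The chlorophyll and haem list had 11 of 13 lower and 0 higher (median -0.23), the plastid folding, proteolysis and division list 10 of 12 lower and 2 higher (median -0.24), and all 4 Calvin cycle and photorespiration genes were lower (median -0.51). None of these medians turned with another scaling. A mean level under 4 held for 1 of 23, 3 of 13, 3 of 12 and 0 of 4 of these genes, against 56.9% of all nuclear genes. The shares among brighter genes alone were not counted. With such dim probe sets left out, the 4 medians were -0.25, -0.58, -0.25 and -0.51. They were -0.91 for xyloglucan endotransglucosylases and -0.85 for GH9 endoglucanases, but 0.60 for auxin genes. A lower median was therefore not particular to the chloroplast lists. Among the higher members of the plastid folding list was NCLPP7, a mitochondrial protease subunit. Only TROL and SBPASE, among the genes of the thylakoid and carbon fixation lists, had a mean difference past 2-fold.

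Within the thylakoid list, PAM68, an assembly factor of photosystem II, read 6.27, 5.25 and 5.53 on the WT arrays and 6.27, 5.14 and 5.42 on the mutant ones of 5, 6 and 7 weeks (-0.79 ± 0.13), and the photosystem II assembly factor LPA19 was at -0.71 ± 0.18. The ATP synthase subunit ATPC1 was at -0.40 ± 0.24. Some abundant light-harvesting and core subunits differed little: LHCB4.1 read 12.49 and 12.48 at 5 weeks and 12.46 and 12.33 at 7 weeks in WT and mutant, and PSBW was at -0.03 ± 0.13. PIFI, a factor of plastid NDH activity, was the 1 member higher in both, at 0.27 ± 0.15. Of the carbon-fixing enzymes, sedoheptulose-bisphosphatase SBPASE read 10.88, 9.69 and 9.94 on the WT arrays and 11.20, 10.58 and 10.04 on the mutant ones (-1.05 ± 0.23). Hydroxypyruvate reductase HPR of photorespiration was at -0.38 ± 0.19.

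For chlorophyll, the methyltransferase CHLM read 10.11, 9.77 and 9.41 on the WT arrays and 10.14, 9.66 and 9.17 on the mutant ones of 5, 6 and 7 weeks (-0.83 ± 0.14) and the protochlorophyllide reductase PORB read 11.44, 10.24 and 10.31 on the WT arrays and 10.82, 10.58 and 10.17 on the mutant ones (-0.90 ± 0.26). The magnesium chelatase subunit CHLI2 was at -0.81 ± 0.28 and the light-harvesting-like protein LIL3:1, which holds chlorophyll synthesis enzymes in the membrane, at -0.61 ± 0.25. Genes of plastid upkeep were also lower: the chaperonin subunit Cpn60beta4 was at -0.84 ± 0.14, the division ring protein FTSZ2-2 at -0.71 ± 0.14 and the iron-sulfur scaffold HCF101 at -0.50 ± 0.12. The Clp protease subunit NCLPP7, counted in that list although its protein is mitochondrial, was higher, at 0.62 ± 0.14. It read 6.57 and 6.69 at 5 weeks and 7.22 and 7.29 at 7 weeks. NTRC, the NADPH-dependent thioredoxin reductase of the plastid, read 8.11, 7.25 and 6.96 on the WT arrays and 8.14, 7.34 and 7.21 on the mutant ones (-1.04 ± 0.14), although the list of plastid and mitochondrial thioredoxins was mixed, with 5 of 8 lower and 3 higher. Of 17 factors of organelle RNA editing and splicing, 9 were lower and 1 higher, CRR21 first and LPA66 (-0.59 ± 0.14) after it, and 14 of the 17 had a mean level under 4, where RMA compresses differences.

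**Figure D3:**
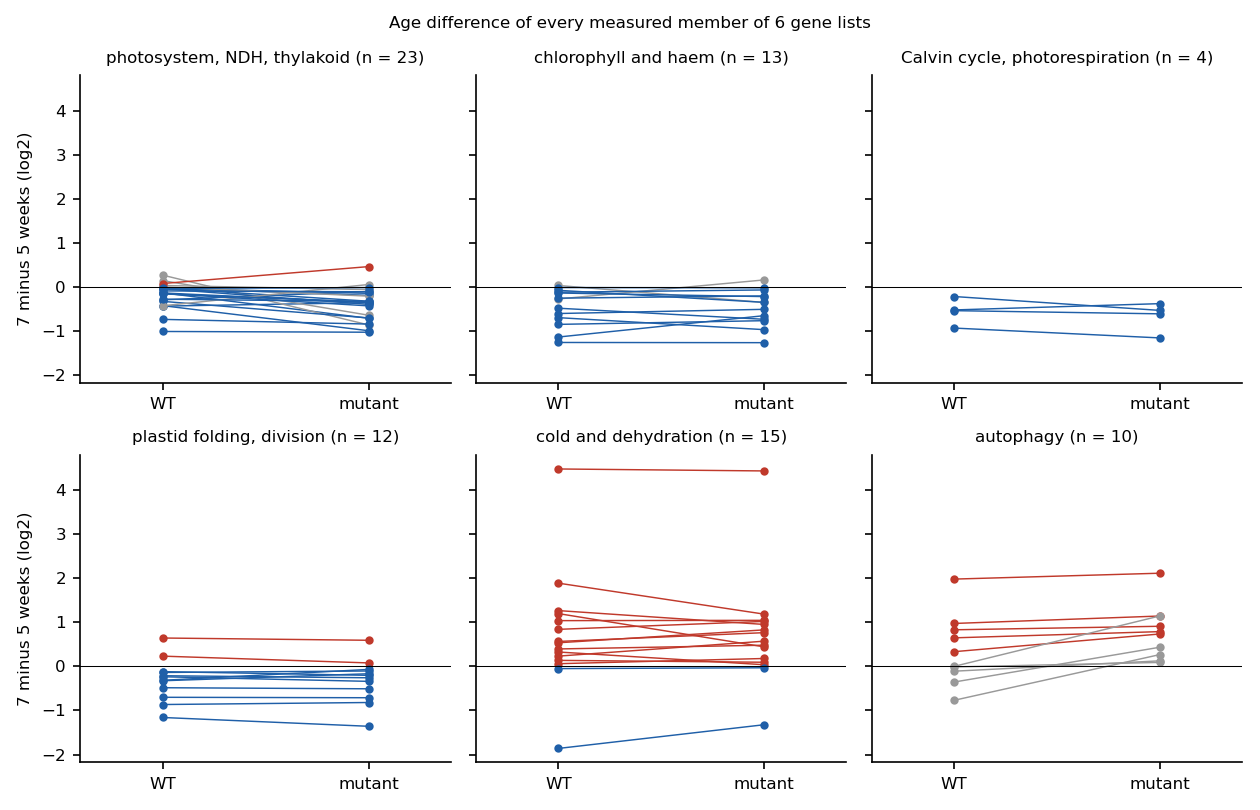
Lines join the WT and mutant 7 minus 5 week log2 differences of each measured member of 6 lists. Blue members were lower in both genotypes, red members higher in both and grey members differed in direction; the chlorophyll and Calvin cycle lists hold no red line and the autophagy list no blue one.

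On the higher side, 13 of 15 cold and dehydration genes were higher in both genotypes and 2 lower, with a median of 0.67. Besides the COR genes, XERICO, a RING protein that raises abscisic acid, read 7.24 and 6.94 at 5 weeks and 8.43 and 7.39 at 7 weeks in WT and mutant (0.82 ± 0.28). DI21 was at 0.93 ± 0.33, SRC2 at 0.68 ± 0.14, DI19 at 0.67 ± 0.37 and the lipocalin TIL, which protects membranes from heat and cold, at 0.44 ± 0.15. COR15B read 9.58, 9.40 and 10.85 on the WT arrays and 8.91, 9.25 and 9.86 on the mutant ones of 5, 6 and 7 weeks (1.11 ± 0.23). HVA22C, described above, was the member at least 2-fold lower. Of 9 clock and light signalling genes 8 were higher and 0 lower in both, COR27 among them, with a median of 0.22. The clock gene GI, which peaks in the evening, read 8.30, 7.59 and 8.70 on the WT arrays and 7.39, 7.75 and 8.09 on the mutant ones (0.55 ± 0.28), and its 5-week WT level was above its 7-week mutant level. TKL, a relative of TIME FOR COFFEE, was at 0.57 ± 0.24, TIC itself at 0.22 ± 0.33 and LIP1 at 0.24 ± 0.13; HYH, whose 2 genotypes disagreed, was at -0.74 ± 0.42.

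Of 10 autophagy genes 5 were higher in both genotypes and 0 lower (median 0.55), and the 5 were all ATG8 family members. ATG8C read 7.77, 8.78 and 8.60 on the WT arrays and 7.48, 8.26 and 8.39 on the mutant ones of 5, 6 and 7 weeks (0.87 ± 0.14) and ATG8B 4.75, 6.74 and 5.73 on the WT arrays and 4.98, 5.63 and 6.13 on the mutant ones (1.06 ± 0.40). ATG8E was at 0.72 ± 0.37 and APG8A at 0.53 ± 0.17. ATG8F (0.01 ± 0.14) and ATG3, the enzyme that joins ATG8 to lipid (0.04 ± 0.32), were among the 5 members with no common direction. In WT the median of the list was 0.17, in the mutant 0.76. Other lists of recycling shared this direction less or not at all when all members were counted. Of 5 vacuolar processing enzymes and cysteine proteases 2 were higher and 1 lower (median 0.01), with the protease GAMMA-VPE at 0.77 ± 0.20. A mean level under 4 held for 4 of these 5 genes, and with such dim probe sets left out the median was 0.77, the value of GAMMA-VPE. Of 4 ureide and purine breakdown genes 0 were higher and 3 lower, of 10 subtilases 2 and 4, and of 8 genes of branched-chain amino acid breakdown 1 and 3. In that order, 2, 7 and 0 of these genes were dim, and the medians without dim probe sets were -0.49, -0.07 and -0.03. Of 5 tonoplast and other sugar transporters 3 were higher and 2 lower, and TMT1 read 6.78, 6.59 and 7.44 on the WT arrays and 6.0, 6.78 and 7.18 on the mutant ones (0.92 ± 0.26). The list of 6 senescence-associated genes had 2 higher and 0 lower in both. The median difference was -0.07 for WT but 0.58 for the mutant. With its 2 dim genes left out, the median over both genotypes went from 0.25 to 0.70. Of 12 ubiquitin-conjugating enzymes 6 were higher and 1 lower, led by UBC28 with 9.85, 10.76 and 10.88 on the WT arrays and 9.67, 10.20 and 10.53 on the mutant ones (0.95 ± 0.15).

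Calmodulin-like, pathogenesis-related and pattern-triggered immunity genes had a larger median difference in the mutant than in WT. In the other defence lists the 2 medians were closer together or went the other way. The 8 genes of salicylate-linked and systemic resistance, 4 higher and 1 lower in both, had a median of 0.27 in each genotype. For 10 genes of jasmonate and wounding, 3 higher and 4 lower, WT had a median of 0.18 and the mutant one of -0.09, and for 10 glucosinolate genes, 1 higher and 2 lower, one of -0.09 and -0.02. Of 7 calmodulin-like genes, whose products sense calcium, 5 were higher in both and 1 lower; WT had a median of 0.25, the mutant one of 1.22. CML43 read 3.81, 4.90 and 4.53 on the WT arrays and 4.30, 4.96 and 5.65 on the mutant ones of 5, 6 and 7 weeks (1.04 ± 0.28) and CML42 6.53, 7.65 and 6.96 on the WT arrays and 6.35, 6.64 and 7.07 on the mutant ones (0.57 ± 0.29). For both, WT was highest at 6 weeks and the mutant at 7 weeks. Of 14 pathogenesis-related, chitinase and defensin genes 6 were higher and 1 lower in both, and the medians were 0.08 (WT) and 0.44 (mutant). The chitinase CHI read 9.19, 10.10 and 9.98 on the WT arrays and 9.70, 11.21 and 11.46 on the mutant ones (1.27 ± 0.26), the osmotin-like OSM34 2.60, 3.45 and 3.25 on the WT arrays and 2.65, 3.12 and 5.49 on the mutant ones (1.75 ± 0.65) and the defensin PDF1.2 7.67, 10.76 and 8.05 on the WT arrays and 7.49, 8.25 and 9.01 on the mutant ones (0.95 ± 0.83). Of 6 genes of pattern-triggered immunity 3 were higher in both and 0 lower, with medians of 0.14 (WT) and 0.68 (mutant). BIK1, a kinase at immune receptors, read 5.76, 6.39 and 6.38 on the WT arrays and 5.91, 6.82 and 6.89 on the mutant ones. Many members of these lists were dim, where RMA compresses differences. A mean level under 4 held for 4 of the 6 genes, 9 of the 14 pathogenesis-related and 3 of the 7 calmodulin-like ones. The subtilase SBT3.3, linked to immune priming, was at 0.80 ± 0.17 and WES1, which conjugates auxin and salicylate-related acids, at 1.0 ± 0.22. WRKY47 was at 1.14 ± 0.21. None of these genotype differences was shown by a test: for the interaction of genotype and age in limma every adjusted p was 1, 0 probe sets passed, 233 had an unadjusted p under 0.05, and the median SE was 0.40.

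Glutaredoxins and methionine sulfoxide reductases had 6 of 10 members higher in both and 2 lower (median 0.31), with MSRB3 at 0.42 ± 0.26 and MSRB5 at 0.34 ± 0.34 after the 2 genes given above. Of 8 iron-deficiency bHLH factors and iron uptake genes 5 were higher and 2 lower, none by 2-fold; ILR3 was at 0.28 ± 0.14 and bHLH104 at 0.29 ± 0.19. In the endoplasmic reticulum list 7 of 14 were higher and 3 lower; the stress factor BZIP60 read 7.76, 8.63 and 8.63 on the WT arrays and 7.86, 9.05 and 8.80 on the mutant ones of 5, 6 and 7 weeks (0.91 ± 0.15).

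Several lists of growth, wall and trafficking genes had more members lower than higher in both genotypes, and others did not. Of 15 wall polysaccharide synthases 9 were lower and 3 higher (median -0.12); CSLC5 read 5.19, 3.8 and 4.22 on the WT arrays and 5.13, 3.56 and 3.65 on the mutant ones of 5, 6 and 7 weeks (-1.22 ± 0.17) and the xyloglucan synthase family member CSLC04 was at -0.67 ± 0.22. Of 15 IQD proteins, which bind calmodulin and sit on microtubules, 9 were lower and 0 higher, IQD30 first at -0.73 ± 0.13. Of 7 exocyst subunits, which tether secretory vesicles, 6 were lower and 1 higher, SEC15B first with 6.06, 3.67 and 4.58 on the WT arrays and 5.35, 4.75 and 4.47 on the mutant ones (-1.18 ± 0.44). Of 13 glutathione transferases 8 were lower and 1 higher; GSTU20 read 9.62, 9.0 and 8.77 on the WT arrays and 9.54, 8.57 and 8.58 on the mutant ones (-0.91 ± 0.15). The malectin-like receptor kinases FER and THE1, sensors of the cell wall, were at -0.59 ± 0.30 and -0.73 ± 0.21. SLY1, which targets growth-repressing DELLA proteins in response to gibberellin, was at 0.77 ± 0.17; of 6 genes of gibberellin perception 3 were higher and 1 lower. Of 18 auxin genes 8 were higher and 3 lower, of 15 tetraspanins 5 and 4, of 10 RALF-like peptides 3 and 2, of 8 histones 3 and 3, and of 12 ESCRT and vacuolar sorting genes 5 and 3. Of 9 tubulins and actins 2 were higher and 5 lower, and of 10 xyloglucan endotransglucosylases 2 and 4. A mean level under 4 held for 8 of these 10, 15 of the 18 auxin genes, 10 of the 15 tetraspanins and 8 of the 15 IQD genes. With such dim probe sets left out, the medians in that order were -0.91, 0.60, -0.10 and -0.43. Over all members they were -0.09, 0.02, -0.01 and -0.16. The subunit ACLA-1 of ATP-citrate lyase, which supplies cytosolic acetyl-CoA, read 9.13, 7.76 and 8.27 on the WT arrays and 8.62, 8.30 and 7.91 on the mutant ones (-0.79 ± 0.29). For SEC15B and ACLA-1 the lowest of the 6 levels was that of the 6-week WT array.

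In further families neither direction held most members in both genotypes. Of 51 UDP-glycosyltransferases 18 were higher and 16 lower in both, of 18 expansins 6 and 7, of 15 SWEET sugar transporters 5 and 7, of 14 genes of mitosis and DNA replication 4 and 4, of 15 phenylpropanoid genes 6 and 6, and of 12 cytosolic chaperones 5 and 5. In the same order, 27, 11, 9, 10, 8 and 5 genes had a mean level under 4, where RMA compresses differences. With such dim probe sets left out, the median differences in that order were -0.26, -0.30, -0.47, -0.29, 0.26 and -0.49. Among 40 AGAMOUS-like factors 13 were higher and 5 lower, and 37 of them had a mean level under 4.

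**Figure D4:**
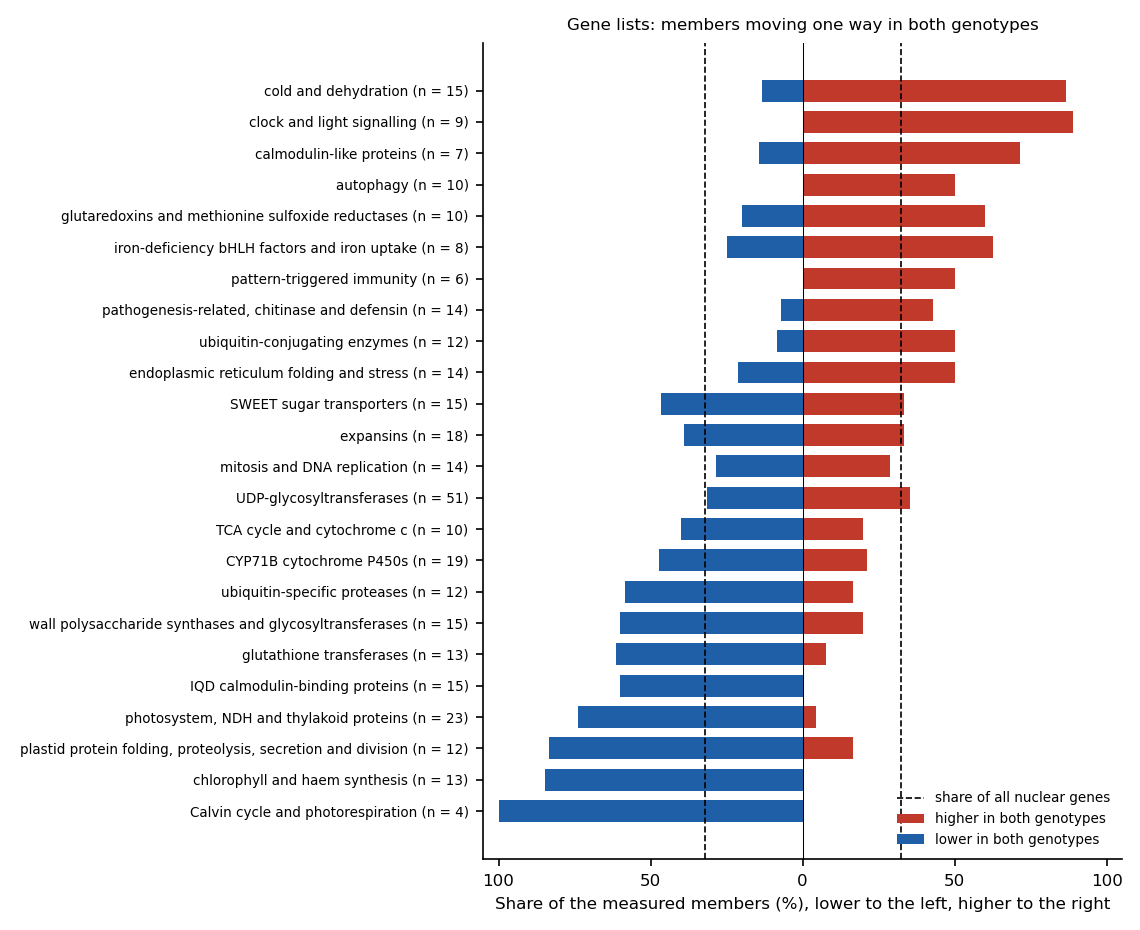
Bars give the share of the measured members of 24 lists that were higher (red, to the right) or lower (blue, to the left) at 7 weeks in both genotypes, and dashed lines the same shares of all 13217 nuclear genes, 32.4% and 32.2%. Among the lists plotted, cold, clock and calmodulin-like genes reach furthest right and the 4 chloroplast lists at the bottom furthest left. The exocyst, with 6 of 7 lower, is not plotted. Malectin-like receptor kinases, ureide and purine breakdown and ATP-citrate lyase had 3 of 4 genes lower each, and 0, 0 and 1 higher. These lower shares exceed that of the thylakoid list, 17 of 23. The organelle RNA editing and splicing list had 9 of 17 lower and 1 higher. The thioredoxin list had 5 of 8 lower and 3 higher.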

How the data were processed

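The deposited table holds 1 log2 value per probe set and array (Affymetrix), which the authors made with RMA (named in the submitters' processing notes, with no version given in the sources used here). Control probe sets (64 of 22810) were set aside. The annotation names 1 gene for 13513 of the 22746 others, 503 have several and 8730 are unnamed here. RefSeq TAIR10.1 names placed 13367 of the 13513 on nuclear chromosomes, and the probe set with the highest mean stood for each of the 13217 genes. Genotype and age entered as factors in limma 3.58.1 (R 4.3.3), with 2 residual degrees of freedom, eBayes and Benjamini-Hochberg adjustment over 22746 probe sets at 0.05; the interaction used age as a number. The fit was tested on simulated data.

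Named were the 15 genes in each direction with the largest smaller-of-the-pair difference, then up to 4 members per list in the direction of its median, with 1 opposite member where at least 2-fold, plus genes chosen after their values were seen: those with a symbol past 2-fold, and APG8A, ATG3, ATG8F, DI19, DI21, HYH, LHCB4.1, LIL3:1, NCLPP7, PIFI, PSBW, SRC2, TIC, TIL and XERICO. The members and the 67 lists (64 of functions, the rest cell type markers) were chosen with earlier results of these data known, and list patterns were turned into explicit members by gene name. The number of arrays limits the precision. Alternatives were another scaling, limma-trend, a filter on dim probe sets, other thresholds, other terms, 4 arrays and leaving out each array. Promoter sequences were not used here.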

Additional observations from a re-analysis of the deposited data

Results flagged for a closer look

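In 18 of 64 lists of gene functions the median 7 minus 5 week difference pointed one way in WT and the other way in the mutant. Such a split rests on 1 pair of arrays per genotype, and the difference was not tested for any list. Values are the mutant median minus the WT median on the log2 scale, with the medians of WT and mutant and the number of genes in brackets. The mutant was above WT by 0.648 for senescence-associated genes (-0.07 and 0.58, n = 6), 0.401 for glutamate receptor-like channels (-0.08 and 0.32, n = 8), 0.333 for WRKY factors (-0.06 and 0.28, n = 7), 0.272 for starch metabolism (-0.17 and 0.11, n = 6), 0.242 for ESCRT and vacuolar sorting (-0.15 and 0.09, n = 12), 0.241 for branched-chain amino acid breakdown and electron-transfer flavoprotein (-0.19 and 0.05, n = 8), 0.0574 for tetraspanins (-0.02 and 0.03, n = 15) and 0.0505 for mitosis and DNA replication (-0.01 and 0.04, n = 14). It was below WT, with values of -0.532 for alternative NADH dehydrogenases (0.30 and -0.23, n = 5), -0.28 for flavonoid and anthocyanin genes (0.06 and -0.22, n = 8), -0.265 for jasmonate and wounding genes (0.18 and -0.09, n = 10), -0.246 for histones (0.19 and -0.06, n = 8), -0.222 for RALF-like peptides (0.22 and -9.83e-06, n = 10), -0.163 for vacuolar processing enzymes and cysteine proteases (0.15 and -0.01, n = 5), -0.14 for phenylpropanoids (0.09 and -0.05, n = 15), -0.114 for SWEET sugar transporters (0.02 and -0.10, n = 15), -0.106 for expansins (0.01 and -0.10, n = 18) and -0.0756 for GH9 endoglucanases (0.06 and -0.01, n = 15).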

How the results depend on the processing

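The number of probe sets with an adjusted p under 0.05 in limma was 0 on all 6 arrays, with age as a number, after either rescaling and without any 1 array of 5 or 7 weeks. It was 9 without a genotype term, 258 with limma-trend, 321 with dim probe sets (mean under 4) left out, 1755 with the 4 arrays alone, and 524 at an adjusted p of 0.10. Leaving out 1 array at a time gave 0 to 1755, the upper value without either 6-week array, since the other 6-week array is then fitted exactly. At 1.5-fold, 950 probe sets were higher and 1017 lower in both genotypes. With 6 in place of 5 weeks, 36 were higher and 44 lower. Both counts stayed within 1.5 times under the 2 rescalings, the dim filter and 6 in place of 7 weeks. Of the list medians, 11 of 67 changed sign after shifting all arrays to a common median (none over 0.07 in size), 0 after a second quantile normalization and 8 of 66 with dim probe sets left out, among them GH9 endoglucanases, from 0.02 to -0.85, and mitosis and DNA replication, from 0.04 to -0.29. Of 271 genes named by the rule or by a symbol, 100 passed 0.05 with the 4 arrays, against 1755 of all 22746 probe sets (7.72%). The genes were chosen by the differences that this fit uses, so their share is no separate support. With the shifted medians 2 of the 271 changed sign: APL4 to 0.0114 and RR19 to 0.0174. The causes were not tested. The ages are paired by genotype through the genotype term; no other block was fitted, since the labels give no replicate numbers. Values of dim probe sets are compressed by RMA, and 56.9% of the nuclear genes had a mean level under 4.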

Other observations

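The following 7-week minus 5-week differences belong to gene groups not described above, as log2 mean ± SE of the 6-array limma fit with 2 arrays per age. The glycosyltransferase UGT72E1 of monolignol glucosides was at 0.83 ± 0.13 and UGT71C5, which glucosylates abscisic acid, at 0.91 ± 0.21. The RING protein LUL1 was at 0.92 ± 0.17. The cation/proton exchanger CHX16 was at 1.21 ± 0.39. The beta-glucosidase BGLU40 was at -1.35 ± 0.32, the serine carboxypeptidase-like protein scpl25 at -0.82 ± 0.23 and the shared RNA polymerase subunit NRPB6A at -0.64 ± 0.14. Each of these 7 genes had the same direction in both genotypes, and none passed in limma on all 6 arrays. Ubiquitin-specific proteases, which remove ubiquitin, were lower in both genotypes for 7 of 12 and higher for 2, against 1 and 6 of 12 for the ubiquitin-conjugating enzymes; the difference between these counts was not tested. Of 22 wall acetylation (TBL) genes 9 were lower and 1 higher in both, and of 29 serine carboxypeptidase-like genes 12 and 6.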
